A study of Mus musculus with 6 samples.

Results

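Motile cilia and ependymal genes were followed in RNA-seq libraries of cultured primary mouse astrocytes, as 43 of the 14147 genes of the deposited table. The members were chosen by name: the ciliary transcription factors Foxj1, Rfx2 and Rfx3, and every gene whose symbol starts with Cfap, Dnah, Dnaic, Dnaaf, Rsph, Tekt, Drc or Ift followed by a digit. They divide into 3 regulators, 26 genes of the motile axoneme and 14 intraflagellar transport (Ift) genes. One group of 3 libraries came from astrocytes given human IgG against aquaporin-4 (AQP4-IgG), the astrocyte water channel that is the autoantigen of neuromyelitis optica. The other 3 libraries came from astrocytes given human control IgG (Control-IgG). All cells were labelled as wild type and were collected at 24 h. The series title mentions conditioned medium, and the route by which the IgG was applied is not clear from the labels. Nothing in the labels ties a library to a culture or an animal of its own. The p-values below therefore cover only library-to-library spread, part or all of which may be technical.

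A motile cilium is driven by dynein arms on a ring of microtubule doublets. The arms are preassembled in the cytoplasm, are regulated by the nexin-dynein regulatory complex and receive signals from the central pair of microtubules through the radial spokes. In the brain such cilia stand in tufts on ependymal cells, which line the ventricles and, like astrocytes, descend from radial glia. Astrocytes carry a single, immotile primary cilium. Intraflagellar transport, the movement of cargo trains along the cilium, builds both kinds, so Ift genes are active in nearly all ciliated cells. FOXJ1 switches on genes for motile cilia, and RFX factors act on genes of both kinds of cilium.

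Values are FPKM, that is reads divided by exon length and by the total of the library, so levels can be set side by side between genes. Each log2 fold change sets log2(FPKM + 1) of AQP4-IgG over Control-IgG, a scale that understates the change of genes at low levels. A gene was called changed when its adjusted p from limma, over the 12334 genes that averaged 1 FPKM or more, was under 0.05. Of the 43 members 35 reached that mean and were tested. The whole reads behind the values came to 17.9 to 20.6 M per library.

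Of the 35 tested members 0 were called by limma, against 2.09% of all genes tested (1.46% higher and 0.632% lower). Among members whose groups did not overlap, the assembly factor Dnaaf3 had the largest ratio of means, 1.37, and Foxj1 the smallest adjusted p. At an unadjusted p under 0.05 stood 5 members, or 14.3%, beside 13.3% of all genes tested (7.64% higher and 5.68% lower). They were Foxj1, Dnaaf3, Ift52 and Ift27, which were higher in AQP4-IgG libraries, and Cfap100, which was lower. All libraries of one group lay beyond those of the other for 6 tested members, or 17.1%, of which 5 were higher and 1 lower, beside 19% of all genes tested (10.4% higher and 8.58% lower). Both shares lie near the background. In bulk RNA such as this, a change in the number of cells of a type and a change in RNA per cell cannot be told apart. In limma-voom on recovered reads Foxj1 was called, alone among the 29 members in that fit, where 4.29% of all genes were. No adjusted p under 0.05 stands beside any of the 43 members in the authors' deposited table, where it does beside 2.91% of all genes.

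Most motile axoneme genes were at lower levels than the transport genes, with some overlap. GENCODE M21 lists 14 protein-coding genes named Ift with a digit, and all 14 were analysed, with means over the 6 libraries of 3.23 to 16.7 FPKM. It lists 15 Dnah genes, of which 2 were analysed, at 0.580 and 0.494 FPKM, and 31 Cfap genes, of which 12 were analysed. The table holds genes whose larger group mean is at least 0.5 FPKM, and the other genes of these names were not analysed here. The median level was 1.97 FPKM over the 26 motile axoneme genes and 6.54 FPKM over the 14 Ift genes, while the median over the table was 5.999 FPKM. Of the motile axoneme genes 16 lay under 3 FPKM, and 0 of the Ift genes did. Foxj1, at 40.0 FPKM, and Cfap36, at 41.2 FPKM, stood apart from the other members, the next of which was Ift20 at 16.7 FPKM.

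**Figure D1:**
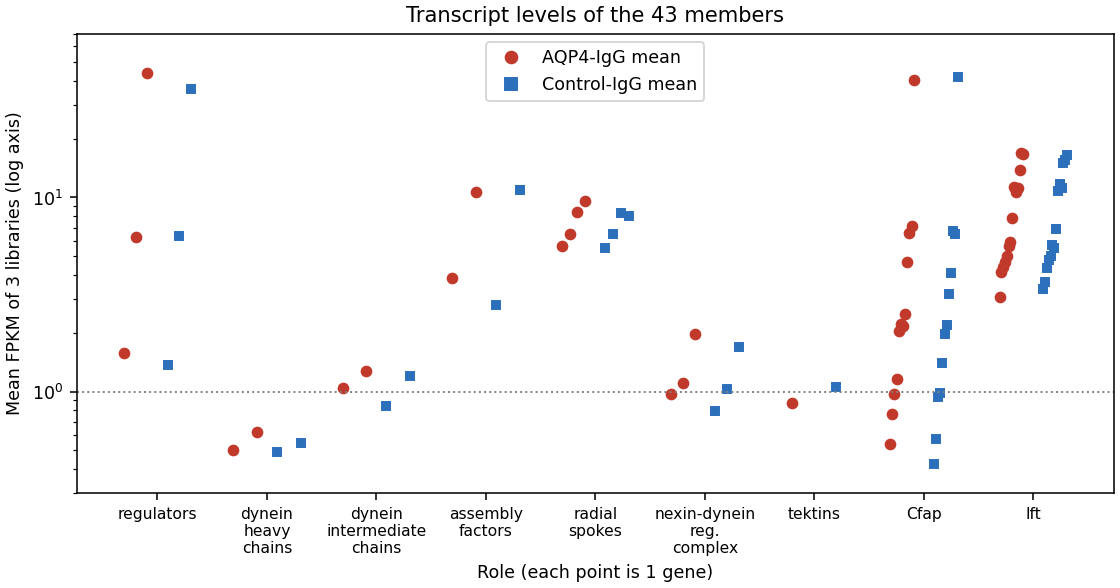
Mean FPKM of each of the 43 genes (log axis) by role, with AQP4-IgG as circles on the left and Control-IgG as squares on the right of each role; the dotted line marks 1 FPKM. The dynein heavy chains lie under 1 FPKM in both groups and the Ift genes between about 3.07 and 17.0 FPKM in both.

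Foxj1, the forkhead factor required for motile cilia, had 46.7, 43.8 and 40.9 FPKM in AQP4-IgG libraries 1 to 3, against 39.0, 34.4 and 35.5 FPKM in Control-IgG libraries 1 to 3. Every AQP4-IgG library lay above every Control-IgG library, although AQP4-IgG 3 exceeded Control-IgG 1 by little. The mean was 43.8 ± 2.90 FPKM in AQP4-IgG libraries and 36.3 ± 2.41 FPKM in Control-IgG libraries (SD, n = 3 each), a 1.21-fold difference. On the log2 scale the fold change was 0.26 (SE 0.0622), and limma's adjusted p of 0.0803 did not pass the threshold. Limma-voom on recovered reads gave an adjusted p of 0.0145, and limma without Control-IgG 1 gave 0.0299. In all, Foxj1 passed in 3 of 15 alternative fits, so that the call depends on the fit. With the other libraries left out in turn the adjusted p lay between 0.0666 and 0.261. The authors' deposited table gives Foxj1 an adjusted p of 0.0607. The gene (ENSMUSG00000034227) lies on the minus strand of chromosome 11, 116330704 to 116335399 in GRCm38, and its counts are deep, at 2210 to 2511 reads in AQP4-IgG libraries and 1617 to 2082 in Control-IgG libraries. None of its 50-base stretches occurs in a transcript of another gene.

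The RFX factors, which bind the X-box of ciliary genes, had overlapping groups. Rfx2 had 6.69, 5.67 and 6.44 FPKM in AQP4-IgG libraries, against 6.76, 6.06 and 6.14 FPKM in Control-IgG libraries. The means differed by less than the spread within either group, with a log2 fold change of -0.01 and a 95% interval of -0.17 to 0.15 (adjusted p = 0.973, limma). Rfx3 had 1.51, 1.72 and 1.51 FPKM in AQP4-IgG libraries, against 1.28, 1.55 and 1.30 FPKM in Control-IgG libraries. Control-IgG 2 lay above AQP4-IgG 1 and 3, and the log2 fold change of Rfx3 was 0.12 with an interval of -0.07 to 0.30 (adjusted p = 0.634, limma).

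**Figure D2:**
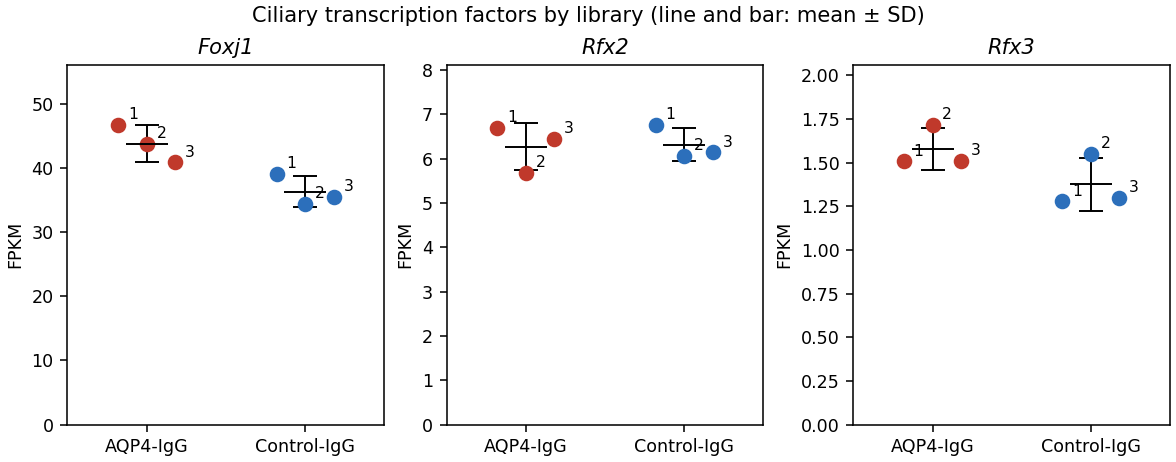
FPKM of Foxj1, Rfx2 and Rfx3 in each library (numbered points, AQP4-IgG left, Control-IgG right), with the mean ± SD of 3 libraries in black. For Foxj1 the AQP4-IgG points, from 40.9 FPKM up, lie above the Control-IgG points, which reach 39.0 FPKM, while for Rfx2 and Rfx3 the groups overlap.

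The promoters of the members were searched for the letters that RFX and forkhead factors are known to bind. The RFX site, the X-box, is an inverted repeat of a half-site close to GTTGCC. Sequences were taken from RefSeq in GRCm38.p6 for 35 of the 43 members, over the 250 bases before the annotated start. The half-site GTTGCC, on either strand, was present in 10 of these 35 promoters (28.6%), against 10.6% of the 10043 promoters of all matched genes in the table. It occurred in 6 of 22 motile axoneme promoters and in 3 of 11 Ift promoters, and in that of Rfx2. The paired form (GTNNCC, then 2 free bases, then GGNNAC), which reads alike on both strands and can contain the half-site, was present in 3 of the 35, those of Ift22, Ift57 and Dnaaf5, beside 2.01% of all. The forkhead letters TGTTTAC, on either strand, were present in 2 of the 35, those of Cfap20 and Cfap43, beside 2.07% of all. The RefSeq start lies furthest from the start in the deposited table for Cfap43 (81938 bases), Ift46 (5101 bases) and Dnah7b (538 bases). Dnah7b is among the 6 axoneme promoters with the half-site. A match describes these letters and not a bound site. The promoters of 4 members are shown because they span the cases: a transport gene with both forms (Ift57), a transport gene with the half-site whose groups did not overlap (Ift27), an axoneme gene with the half-site (Drc1) and the axoneme gene with the largest non-overlapping difference, which holds none of these letters (Dnaaf3). Capitals mark the matches.
Ift57, chr16:49699044-49699293, plus strand: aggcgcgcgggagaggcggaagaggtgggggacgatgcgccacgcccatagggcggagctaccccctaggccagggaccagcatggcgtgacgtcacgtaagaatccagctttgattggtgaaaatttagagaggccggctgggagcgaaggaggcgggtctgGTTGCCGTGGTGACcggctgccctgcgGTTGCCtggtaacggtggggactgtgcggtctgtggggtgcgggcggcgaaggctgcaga
Ift27, chr15:78174082-78174331, minus strand: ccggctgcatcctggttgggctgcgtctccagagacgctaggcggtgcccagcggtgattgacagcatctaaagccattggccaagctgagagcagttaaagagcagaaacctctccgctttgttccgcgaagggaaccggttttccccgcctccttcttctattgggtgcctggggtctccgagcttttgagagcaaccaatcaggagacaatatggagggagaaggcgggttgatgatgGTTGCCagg
Drc1, chr5:30281143-30281392, plus strand: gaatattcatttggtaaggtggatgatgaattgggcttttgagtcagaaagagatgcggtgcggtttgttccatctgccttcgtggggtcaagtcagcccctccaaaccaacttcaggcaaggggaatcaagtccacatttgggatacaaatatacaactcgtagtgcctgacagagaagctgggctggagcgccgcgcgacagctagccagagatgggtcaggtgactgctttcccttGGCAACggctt
Dnaaf3, chr7:4532466-4532715, minus strand: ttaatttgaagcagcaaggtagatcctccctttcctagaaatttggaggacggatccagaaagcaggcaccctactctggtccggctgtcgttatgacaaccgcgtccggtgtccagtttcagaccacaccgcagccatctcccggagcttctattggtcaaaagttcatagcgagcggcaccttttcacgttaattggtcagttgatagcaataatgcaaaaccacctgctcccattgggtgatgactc

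Among the members, the heavy and intermediate chains of the dynein arms were few and weakly expressed. Dnah7b, an inner-arm heavy chain, had 0.561, 0.633 and 0.656 FPKM in AQP4-IgG libraries and 0.558, 0.564 and 0.509 FPKM in Control-IgG libraries. Dnah9, an outer-arm heavy chain, had 0.523, 0.544 and 0.438 FPKM in AQP4-IgG libraries and 0.515, 0.427 and 0.519 FPKM in Control-IgG libraries. Both transcripts are long, so these levels still rest on 144 to 270 reads in AQP4-IgG libraries and 122 to 227 in Control-IgG libraries, and the groups overlapped for both. Of the 50-base stretches of Dnah7b, 30.1% also occur in other genes, mainly its neighbour copy Dnah7c. Of the outer-arm intermediate chains, Dnaic2 had 1.48, 1.18 and 1.16 FPKM in AQP4-IgG libraries and 1.23, 1.38 and 1.004 FPKM in Control-IgG libraries, with overlapping groups (log2 fold change 0.05, adjusted p = 0.912, limma). Dnaic1 had 1.31, 0.881 and 0.942 FPKM in AQP4-IgG libraries and 1.08, 0.762 and 0.699 FPKM in Control-IgG libraries. In each group library 1 held the highest Dnaic1 value, and the groups overlapped.

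Of the factors named Dnaaf, which help to preassemble dynein arms, 2 were analysed. Dnaaf3 had 4.38, 3.31 and 3.80 FPKM in AQP4-IgG libraries, against 3.03, 2.96 and 2.40 FPKM in Control-IgG libraries. All AQP4-IgG values lay above all Control-IgG values, and the difference on the log2 scale was 0.35 (SE 0.101, limma adjusted p = 0.151). No alternative fit called it, with adjusted p from 0.0796 to 0.385. Dnaaf3 overlaps other annotated genes over 16.5% of its exon bases, mostly on the other strand, and whether reads were counted by strand is not given in the sources used here. Dnaaf5, a factor of the same process, was present at a higher level of 10.6 ± 0.834 FPKM in AQP4-IgG libraries and 10.9 ± 0.930 FPKM in Control-IgG libraries (SD, n = 3 each; log2 fold change -0.03, adjusted p = 0.922, limma).

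The 4 radial spoke genes had means of 5.56 to 8.81 FPKM over the 6 libraries. Rsph1, a spoke-head protein gene, had 6.996, 6.02 and 6.42 FPKM in AQP4-IgG libraries and 7.68, 5.85 and 5.995 FPKM in Control-IgG libraries. Its means differed by less than the spread within either group (log2 fold change 0.00, interval -0.22 to 0.22, adjusted p = 0.999, limma). Rsph9, also of the spoke head, averaged 5.63 ± 0.737 FPKM in AQP4-IgG libraries and 5.48 ± 0.878 FPKM in Control-IgG libraries (SD, n = 3 each). The spoke-stalk gene Rsph3a had 12.3, 11.5 and 5.12 FPKM in AQP4-IgG libraries, against 6.83, 7.72 and 9.47 FPKM in Control-IgG libraries. Its AQP4-IgG libraries thus held both the highest values and the lowest value, and its standard error of 0.341 was the largest among the members. Of the 50-base stretches of Rsph3a and of its near copy Rsph3b, 58.1% and 69.2% also occur in other genes, mainly in each other, so the division of reads between them is uncertain. Rsph3b averaged 8.38 ± 0.686 FPKM in AQP4-IgG libraries and 8.28 ± 0.824 FPKM in Control-IgG libraries (SD, n = 3 each).

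The nexin-dynein regulatory complex, which links neighbouring doublets, had 3 members. Drc1 had 1.98, 2.23 and 1.75 FPKM in AQP4-IgG libraries and 2.23, 1.64 and 1.23 FPKM in Control-IgG libraries, at 97 to 122 reads in AQP4-IgG libraries and 66 to 122 in Control-IgG libraries. Control-IgG 1 was as high as the highest AQP4-IgG library (log2 fold change 0.16, adjusted p = 0.722, limma). Drc3 averaged 1.11 ± 0.0529 FPKM in AQP4-IgG libraries and 1.03 ± 0.169 FPKM in Control-IgG libraries, and Drc7 averaged 0.974 ± 0.166 FPKM in AQP4-IgG libraries and 0.789 ± 0.260 FPKM in Control-IgG libraries (SD, n = 3 each). In Control-IgG all 3 genes were highest in library 1. Tekt2, whose protein is a filament of the doublet wall, had 0.359, 1.08 and 1.17 FPKM in AQP4-IgG libraries and 1.14, 0.910 and 1.10 FPKM in Control-IgG libraries. The value of AQP4-IgG 1 rests on 14 reads, against 31 to 46 in the other 5 libraries, and 20.8% of the exon bases of Tekt2 overlap an antisense gene.

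Among the Cfap genes, 9 of 12 were tested and 0 were called. Cfap100, whose counterpart in the green alga Chlamydomonas regulates inner dynein arms, had 2.27, 2.46 and 2.77 FPKM in AQP4-IgG libraries, against 3.12, 3.45 and 3.00 FPKM in Control-IgG libraries. It was the only tested member with every AQP4-IgG library under every Control-IgG library, and its fold change had the opposite sign to that of Foxj1 (log2 fold change -0.26, SE 0.0781, adjusted p = 0.165, limma). Over 14 alternative fits its log2 fold change stayed between -0.35 and -0.21 and its adjusted p between 0.101 and 0.409. Cfap52, a protein of the doublet lumen, had 2.37, 2.30 and 1.48 FPKM in AQP4-IgG libraries and 1.86, 0.794 and 1.57 FPKM in Control-IgG libraries. The groups overlapped, and the low Control-IgG 2 value rests on 33 reads against 73 to 88 in the other control libraries. Its mean ratio of 1.46 was the largest of all members and had an adjusted p of 0.526 (limma).

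The other tested Cfap genes had overlapping groups. Cfap157, a basal-body protein gene, averaged 4.62 ± 0.276 FPKM in AQP4-IgG libraries and 4.08 ± 0.452 FPKM in Control-IgG libraries (SD, n = 3 each; adjusted p = 0.486, limma). Cfap126, which encodes the ciliary protein Flattop, averaged 2.22 ± 0.310 FPKM in AQP4-IgG libraries and 1.99 ± 0.335 FPKM in Control-IgG libraries (SD, n = 3 each). Cfap69, a central-pair gene, averaged 1.15 ± 0.116 FPKM in AQP4-IgG libraries and 0.979 ± 0.105 FPKM in Control-IgG libraries, with an adjusted p of 0.628 (limma). Cfap43, linked to the tethering of inner dynein arms, averaged 2.18 ± 0.181 FPKM in AQP4-IgG libraries and 2.20 ± 0.216 FPKM in Control-IgG libraries. Cfap36, a small-GTPase partner that is not confined to motile cilia, had 36.6, 41.5 and 43.2 FPKM in AQP4-IgG libraries and 39.9, 40.8 and 45.05 FPKM in Control-IgG libraries (log2 fold change -0.05, interval -0.21 to 0.11, adjusted p = 0.843, limma). Cfap20 and Cfap97, also above 6 FPKM, had log2 fold changes of 0.11 and -0.03.

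The 8 members under a mean of 1 FPKM were Cfap44, Cfap45, Cfap54, Dnah7b, Dnah9, Dnaic1, Drc7 and Tekt2. Their ratios of group means ran from 0.831 for Tekt2 to 1.34 for Cfap44, and 7 of the 8 lay above 1. Cfap54, a central-pair gene, was the only one whose groups did not overlap, with 0.539, 0.552 and 0.510 FPKM in AQP4-IgG libraries against 0.409, 0.442 and 0.415 FPKM in Control-IgG libraries. These are 154 to 165 reads in AQP4-IgG libraries and 116 to 122 in Control-IgG libraries. Cfap54 reached the 0.5 FPKM bound of the deposited table only in AQP4-IgG, with means of 0.534 FPKM there and 0.422 FPKM in Control-IgG. The same held for Dnah9, with means of 0.502 FPKM in AQP4-IgG and 0.487 FPKM in Control-IgG. For both, a ratio above 1 was thus a condition of being analysed, and the separation of Cfap54 is a description only. In limma over all 14147 genes without the filter 0 of the 43 members passed, beside 1.63% of all genes, and Cfap54 had an unadjusted p of 0.233 on the log2(FPKM + 1) scale.

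**Figure D3:**
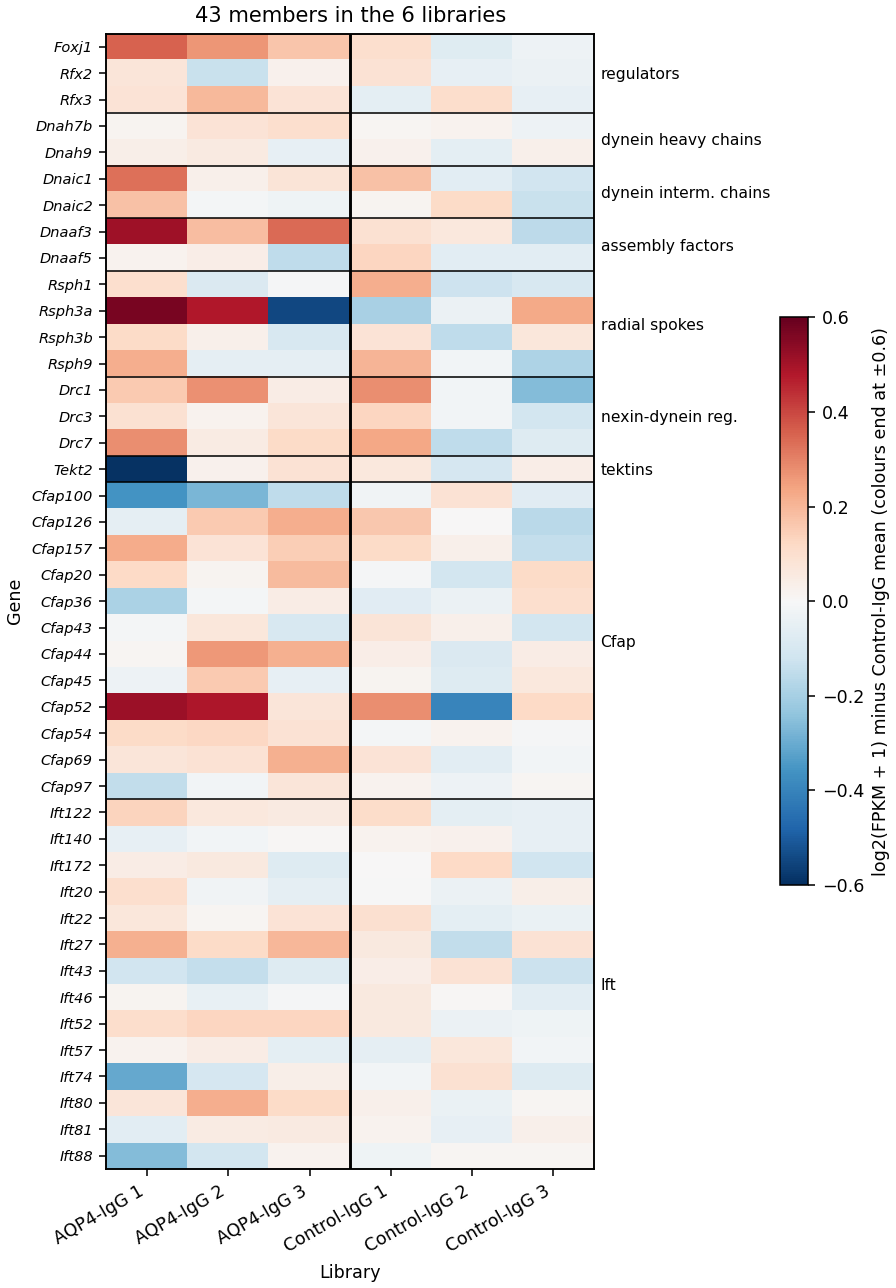
log2(FPKM + 1) of the 43 members in each library minus the gene's Control-IgG mean, AQP4-IgG libraries left of the line and Control-IgG libraries right of it, ordered by role. Foxj1 and Dnaaf3 are above 0 in all 3 AQP4-IgG libraries and Cfap100 below 0 in all 3, Rsph3a and Tekt2 vary most within the AQP4-IgG group, and the Ift rows are pale.

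The fold changes of the Ift genes had a median standard error of 0.0608, beside 0.0856 for the axoneme genes. All 14 were tested and 0 were called, and 14 of 14 had a 95% interval of the log2 fold change that lay within a 1.5-fold change either way (0.585 on the log2 scale). Most genes had such an interval, 11694 of the 12334 tested. Ift52, a core protein of the IFT-B train, had 16.8, 17.1 and 17.1 FPKM in AQP4-IgG libraries, against 16.3, 15.2 and 15.3 FPKM in Control-IgG libraries. The groups did not overlap, but the difference was 1.09-fold (log2 fold change 0.12, SE 0.0438, adjusted p = 0.262, limma). Ift27, a small GTPase of the same train, had 8.12, 7.52 and 8.01 FPKM in AQP4-IgG libraries, against 7.19, 6.10 and 7.34 FPKM in Control-IgG libraries (log2 fold change 0.18, SE 0.0712, adjusted p = 0.326, limma). Ift80, also IFT-B, had 3.92, 4.45 and 4.07 FPKM in AQP4-IgG libraries and 3.78, 3.55 and 3.73 FPKM in Control-IgG libraries, again without overlap (adjusted p = 0.414, limma).

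The groups of the other 11 Ift genes overlapped, with log2 fold changes from -0.12 to 0.08. Ift74 averaged 10.7 ± 1.38 FPKM in AQP4-IgG libraries and 11.7 ± 0.753 FPKM in Control-IgG libraries, and its partner Ift81 4.40 ± 0.237 FPKM in AQP4-IgG libraries and 4.35 ± 0.161 FPKM in Control-IgG libraries (SD, n = 3 each), at log2 fold changes of -0.12 and 0.01. Ift88, needed for ciliary assembly, averaged 3.07 ± 0.397 FPKM in AQP4-IgG libraries and 3.40 ± 0.0708 FPKM in Control-IgG libraries (SD, n = 3 each; log2 fold change -0.12, adjusted p = 0.637, limma). AQP4-IgG 1 had the lowest value of the 6 libraries for both Ift74 and Ift88. Ift20, which links the train to the Golgi and is the most abundant Ift transcript, had 17.9, 16.3 and 15.9 FPKM in AQP4-IgG libraries and 16.6, 16.2 and 17.0 FPKM in Control-IgG libraries (log2 fold change 0.01, interval -0.11 to 0.13, adjusted p = 0.976, limma). Ift22, Ift46, Ift57 and Ift172 had log2 fold changes between -0.01 and 0.05. The 3 IFT-A genes, which serve the return journey, lay at -0.11 for Ift43, -0.02 for Ift140 and 0.08 for Ift122. Over the 11 IFT-B genes the log2 fold changes ran from -0.12 to 0.18 with a median of 0.01.

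**Figure D4:**
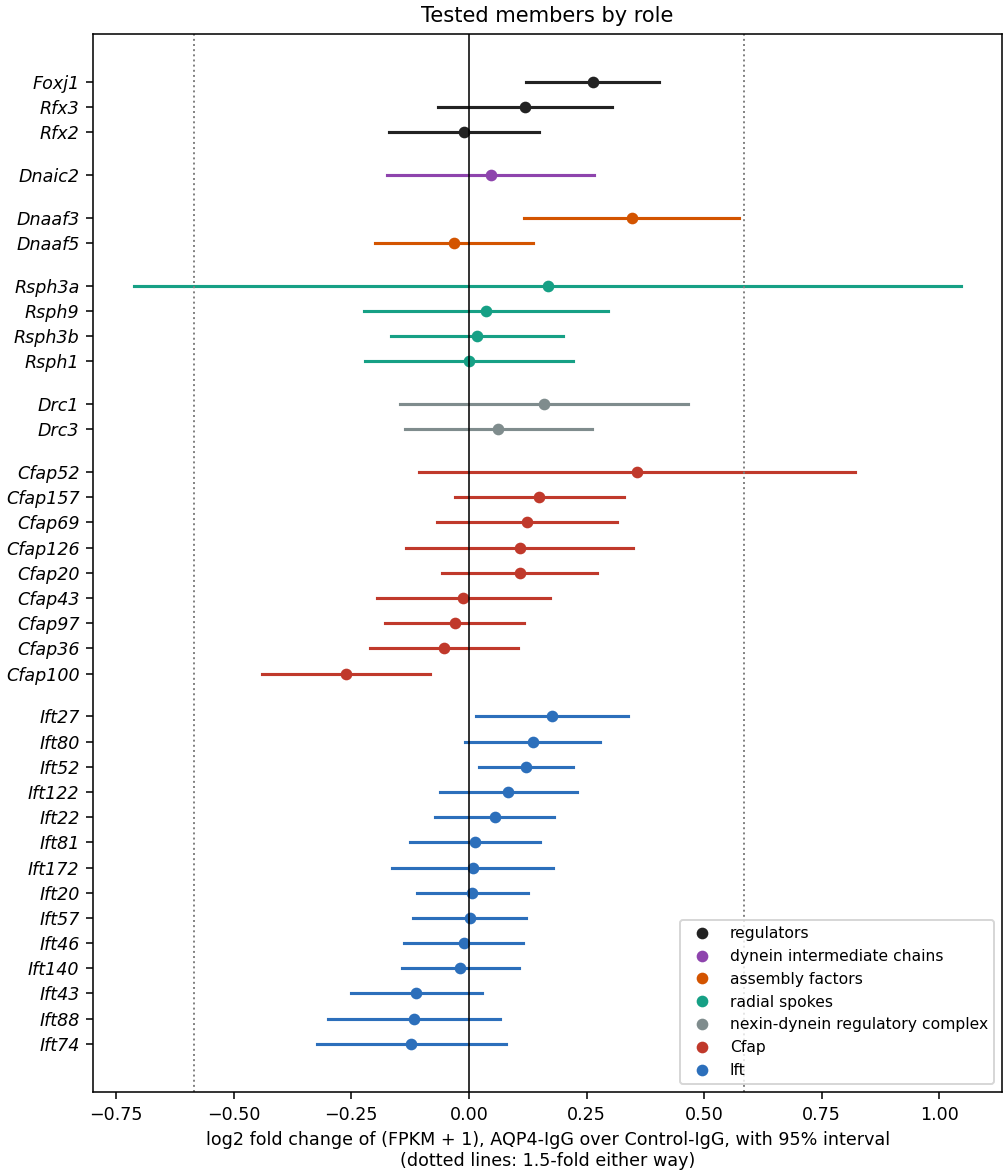
log2 fold change of FPKM + 1 (points) with its 95% interval (lines) for the 35 tested members by role, AQP4-IgG over Control-IgG; dotted lines mark a 1.5-fold change. The intervals of all 14 Ift genes lie within the dotted lines, and those of Rsph3a and Cfap52 do not.

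Set beside each other, the motile axoneme genes had a median log2 fold change of 0.05 over 18 tested genes, and the Ift genes of 0.01 over 14, with 0.00 over all genes tested. Quantile normalization gave medians of 0.03 for the axoneme genes and -0.0050 for the Ift genes, and a pseudocount of 0.1 gave 0.10 and 0.01. Positive values were found for 13 of the 18 and for 9 of the 14, beside 50% of all genes tested. The quartiles were -0.01 and 0.14 for the axoneme genes, and -0.02 and 0.08 for the Ift genes. For all genes they were -0.06 and 0.06. Without the broadly expressed Cfap20, Cfap36 and Cfap97 the axoneme median was 0.06. Of the 18 axoneme genes 16 had an interval within a 1.5-fold change, the exceptions being Cfap52 and Rsph3a. Of all 12334 genes tested, 11694 had an interval within that bound. With a pseudocount of 0.1, which compresses low levels less, Dnaaf3 and Drc1 also reached past that bound, and 31 of the 35 members stayed within it.

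By library, the spread within groups covered the difference between them. Relative to the Control-IgG mean, the tested axoneme genes averaged 0.12, 0.08 and 0.02 log2 units in AQP4-IgG 1 to 3, and 0.09, -0.04 and -0.05 in Control-IgG 1 to 3. Control-IgG 1 thus stood above AQP4-IgG 2 and 3. The Ift genes averaged 0.00, 0.02 and 0.03 in AQP4-IgG 1 to 3, and 0.03, 0.00 and -0.03 in Control-IgG 1 to 3. Control-IgG 1 was the highest control library for 16 of the 26 axoneme genes (61.5%), and for 39.1% of all genes tested. Without Control-IgG 1 the axoneme median was 0.11, and without AQP4-IgG 1 or without Control-IgG 3 it was 0.02. The Ift median was 0.04 without AQP4-IgG 3.

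**Figure D5:**
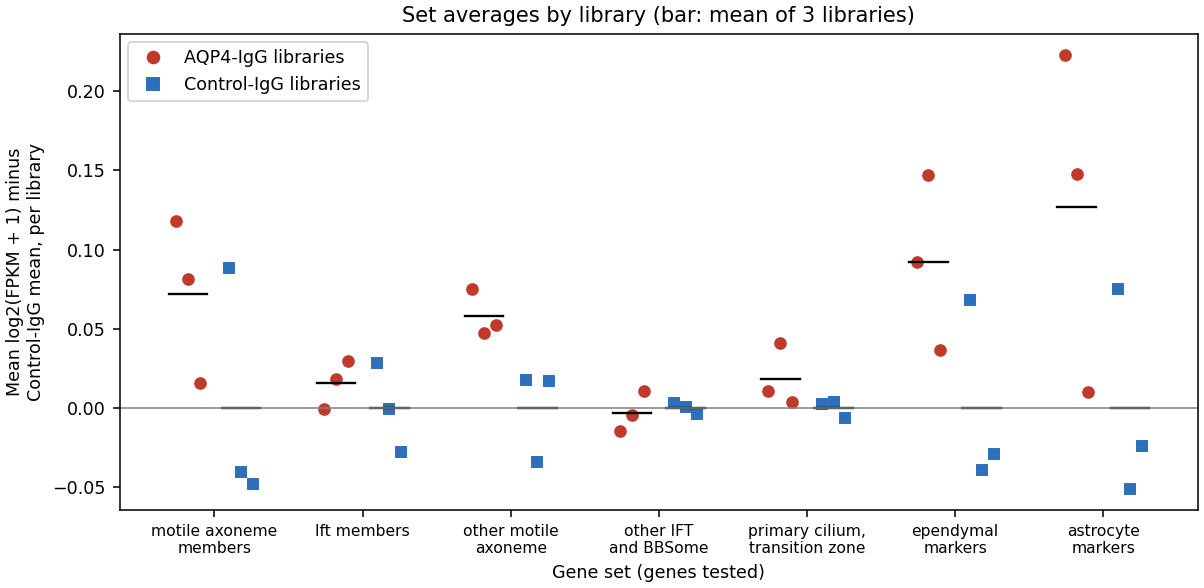
Mean of log2(FPKM + 1) minus the Control-IgG mean over the tested genes of each set, per library (circles AQP4-IgG, squares Control-IgG; bars are means of 3 libraries). For the motile axoneme and Ift members the groups overlap, with Control-IgG 1 at 0.09 for the axoneme genes.

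Other genes listed for cilia, which the naming rule leaves out, were counted beside the members. The further axoneme list holds subunits of arms, spokes and the central pair. It also holds genes that are not parts of these, such as Pih1d1 and Hspa4l, its most abundant gene. Of the 28 tested genes of this list 0 rose and 0 fell in limma, where 2.09% of all genes tested were called. Their median log2 fold change was 0.04, and 3 stood at an unadjusted p under 0.05, beside 13.3% of all genes tested. Limma-voom called 0 of 27, beside 4.29% of all genes in that fit. Relative to the Control-IgG mean they averaged 0.07, 0.05 and 0.05 log2 units in AQP4-IgG 1 to 3, and 0.02, -0.03 and 0.02 in Control-IgG 1 to 3. Their library means thus did not overlap. Taken singly, the groups did not overlap for 4 of the 28, all higher. Of all genes tested 10.4% did so in that direction and 8.58% in the other. The genes share the same libraries, and whether such a separation is unusual for a set was not tested. Ropn1l, a radial spoke gene, had the smallest p and averaged 3.33 ± 0.367 FPKM in AQP4-IgG libraries and 2.69 ± 0.171 FPKM in Control-IgG libraries (adjusted p = 0.248, limma). Of 32 further IFT and BBSome genes (the BBSome moves membrane proteins along the cilium) 0 rose and 0 fell in limma, with a median of 0.01 and 0 at an unadjusted p under 0.05, and limma-voom called 0 of 29. Ttc30b, an IFT-B gene, had the smallest p there (log2 fold change 0.24, adjusted p = 0.384, limma). Of 35 primary cilium and transition zone genes 0 rose and 0 fell in limma, with a median of 0.03 and 1 at an unadjusted p under 0.05, and limma-voom called 0 of 34. This was Pkd2, the polycystin-2 channel gene, at 17.3 ± 0.592 FPKM in AQP4-IgG libraries and 15.8 ± 0.582 FPKM in Control-IgG libraries (adjusted p = 0.289, limma). Of 19 genes listed for the multiciliation program 7 were tested, namely Rfx1, Rfx4, Rfx5, Rfx7, E2f4, E2f5 and Plk4. Of these 0 rose and 0 fell, with 0 at an unadjusted p under 0.05, and limma-voom called 0 of 7. Rfx5 had the smallest p (adjusted p = 0.639, limma). The inducers Mcidas, Gmnc, Ccno and Deup1 were not analysed here, so the counts do not cover them and say little of the program itself.

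Markers of ependymal cells and of other cell types that the cultures could hold were also counted. Of 30 ependymal markers 13 were analysed and 11 tested: 2 rose, 0 fell and 9 did not pass, with a median log2 fold change of 0.05 and 3 at an unadjusted p under 0.05. The risers were Rarres2, which encodes chemerin, at 3.16 ± 0.0815 FPKM in AQP4-IgG libraries and 2.05 ± 0.0491 FPKM in Control-IgG libraries (adjusted p = 0.0109, limma), and Tm4sf1, at 35.8 ± 2.56 FPKM in AQP4-IgG libraries and 25.8 ± 1.45 FPKM in Control-IgG libraries (adjusted p = 0.0106, limma). Both are known from other cells too, and which cells carried them here was not tested. The other 9 had log2 fold changes from -0.26 for Cd59a to 0.21 for Tppp3. Cd59a, a complement inhibitor gene, had every AQP4-IgG library under every Control-IgG library, at 25.5 ± 2.17 FPKM in AQP4-IgG libraries and 30.7 ± 1.76 FPKM in Control-IgG libraries (adjusted p = 0.104, limma). The remaining tested markers, Spint2, Dynlrb2, Cd24a, Enkur, Nnat, Mlf1 and Tmem107, lay at 0.18, 0.08, 0.05, 0.04, -0.04, -0.05 and -0.09. The 2 markers under a mean of 1 FPKM were not tested. Of these, Meig1 had 0.443, 0.534 and 0.616 FPKM in AQP4-IgG libraries and 0.357, 0.354 and 0.181 FPKM in Control-IgG libraries, without overlap. Its mean reached the 0.5 FPKM bound of the deposited table only in AQP4-IgG (0.531 FPKM, against 0.297 FPKM in Control-IgG). A higher AQP4-IgG mean was thus a condition of its being analysed. Riiad1 had a ratio of means of 1.39, with overlapping groups. The markers Ccdc153, Tmem212 and Pifo were not analysed here. The summed level of the list was 153 to 158 FPKM in AQP4-IgG libraries and 142 to 150.0 FPKM in Control-IgG libraries. Tm4sf1 alone gave 32.8 to 37.4 FPKM of this in AQP4-IgG libraries and 24.6 to 27.4 FPKM in Control-IgG libraries. Its difference is as large as that of the sums, which therefore do not show a rise of the list as a whole. Of 15 astrocyte markers 14 were analysed and tested, of which 3 rose and 0 fell: Aqp4, Slc1a3 and Slc1a2, with log2 fold changes of 0.33, 0.32 and 0.35 (adjusted p of 0.0216, 0.0304 and 0.0464, limma). The summed level of the astrocyte list was 522 to 587 FPKM in AQP4-IgG libraries and 470 to 526 FPKM in Control-IgG libraries, with AQP4-IgG 1 highest, as for Foxj1. Within its group AQP4-IgG 1 was also the highest library for 40.1% of all genes tested. The lowest AQP4-IgG sum lay under the highest Control-IgG sum. Of 14 microglia and macrophage markers 0 rose and 1 fell (Cx3cr1, adjusted p = 0.0427, limma), and of 9 fibroblast and mural markers 0 rose and 1 fell (Acta2, adjusted p = 0.0243, limma). At an unadjusted p under 0.05 stood 5 of the 14 astrocyte markers, all higher, 5 of the 14 microglia and macrophage markers, 1 higher (Itgam) and 4 lower, and 3 of the 9 fibroblast and mural markers, all lower. Over all genes tested 13.3% stood under that p, and 2.09% were called by limma. Limma-voom called 3 ependymal, 3 astrocyte, 2 microglia and macrophage and 1 fibroblast and mural marker, beside 4.29% of all genes in that fit. The microglia and macrophage list summed to 1144 to 1298 FPKM in AQP4-IgG libraries and 1160 to 1478 FPKM in Control-IgG libraries. The fibroblast and mural list summed to 2053 to 2392 FPKM in AQP4-IgG libraries and 2698 to 2956 FPKM in Control-IgG libraries. Most of each sum is 1 gene, Lyz2 in the first and Acta2 in the second. Without Lyz2 the first list summed to 375 to 419.6 FPKM in AQP4-IgG libraries and 409.5 to 517 FPKM in Control-IgG libraries. Without Acta2 the second summed to 74.0 to 84.2 FPKM in AQP4-IgG libraries and 75.5 to 85.9 FPKM in Control-IgG libraries. The part of these shifts in the members' values was not tested. Choroid plexus, oligodendrocyte, neuron and endothelial markers had 3, 4, 3 and 3 tested members with 0 called in limma or limma-voom, of which 0, 2, 0 and 1 were at an unadjusted p under 0.05. The smallest p in each was that of Folr1, Olig2, Map2 and Cdh5, with log2 fold changes of 0.25, -0.17, -0.08 and 0.23.

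Ranked by Pearson correlation, the 5 non-members whose log2(FPKM + 1) ran most like that of Foxj1 over the 6 libraries were Irf9, Islr, Slc25a51, Clu and Lbp, out of 12299 genes searched, with r from 0.994 for Lbp to 0.996 for Irf9. This is a description over libraries that share their groups and depth. Irf9, a subunit of the interferon-stimulated transcription factor ISGF3, had 20.5, 18.2 and 16.3 FPKM in AQP4-IgG libraries, against 14.3, 11.9 and 12.6 FPKM in Control-IgG libraries. As for Foxj1, AQP4-IgG 1 was highest and Control-IgG 2 lowest, a likeness that comes with the ranking by which Irf9 was chosen. Clu, the abundant astrocyte glycoprotein clusterin, had 191, 178 and 167 FPKM in AQP4-IgG libraries, against 158, 146 and 147 FPKM in Control-IgG libraries. None of the 5 is a ciliary gene by these lists.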

How the data were processed

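Libraries were made from total RNA with a SMARTer mRNA-seq kit, per the labels' protocols, and the submitters' processing notes name GRCm38 and mm10; the sources used here name no aligner, counter, annotation release or strand setting. The deposited FPKM have no unit in the header: multiplied by the union exon length in GENCODE M21 they gave whole reads within 0.1 for 98.99% to 99.14% of values under 200 reads, over 13296 genes with equal coordinates, 37 of them members. The log2 fold change and p-value columns that the authors deposited come from a comparison of theirs by an unstated method, with adjustment over 25034 genes. Columns were matched to labels by the word control and by number; the case columns were taken as AQP4-IgG because the design has 2 groups, and 0 value columns stayed unmapped.

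The test was limma 3.58.1 (R 4.3.3) with trend and robust variance on log2(FPKM + 1), with Benjamini-Hochberg adjustment over 12334 genes (1813 left out). Limma-voom used the recovered reads. Exact permutation of 3 against 3 libraries reaches no p below 0.1 and was not run. Within-group pairs differed beyond sampling noise (mean chi-square per gene 3.92 to 7.29). Scripts were tested on simulated data. The members and gene lists were chosen with earlier results of these data known. Values in every library are given for the regulators and, per role, for the gene with the highest mean and that with the smallest p; other library values were added after they were seen. From each list the members past the threshold, at most 3, or else the one with the smallest p, are named; other list genes were chosen after their values were seen. The genes most like Foxj1 were ranked by Pearson correlation.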

Additional observations from a re-analysis of the deposited data

How the results depend on the processing

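Across 15 alternatives Foxj1 kept its direction (log2 fold change 0.22 to 0.31) and passed in 3, so that 1 member was called higher with limma-voom, with the replicate number as a block and without Control-IgG 1; in the other 12, and for lower members in all 15, the count stayed at 0. No other member was called under any of them, and 40 of 510 member values changed sign, all of them uncalled. All genes called were 258, but 495 with limma-voom, 607 with the replicate block and 55 to 391 with 1 library left out. The axoneme median was 0.12 with limma-voom, which covers 14 of the 18 genes and adds no 1 to FPKM, 0.03 with quantile normalization, 0.10 with a pseudocount of 0.1, 0.03 over the 10 genes averaging 3 FPKM or more, and 0.02 to 0.11 with 1 library left out. The Ift median was -0.0048 to 0.0355 with 1 library left out, the highest value being that without AQP4-IgG 3. The deviations of same-numbered libraries correlated at 0.20, 0.01 and 0.20, so the numbers were not taken as pairs, although 4 of the 6 libraries correlated best with their own number; under the block Foxj1 had an adjusted p of 0.0121. Recovered reads of a member went down to 14 in a library, for Tekt2.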
